A study of Saccharomyces cerevisiae with 6 samples.

Results

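The 10 genes described here encode the enzymes of the pentose phosphate pathway of budding yeast, including the minor isoforms of 3 of its steps. They were taken by gene symbol from the annotation of a spotted 2-colour array, and all 10 were found among the 5379 genes named there, each with 1 spot. Saccharomyces cerevisiae strain S288C grew at 25 °C in rich YPD medium with 2% glucose. At an optical density of 1, while growth was exponential, treated cultures were exposed to 5% methanol for 2 h, whereas control cultures were kept growing untreated over that time. Poly(A) RNA of the treated culture was labelled with Cy5 and that of the control with Cy3, on 3 arrays of independent biological samples, each read with a high-power and a low-power laser scan. No allele or other agent separates the groups, and no array had its dyes exchanged, so a dye effect specific to a gene stays in its ratio.

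The pathway draws glucose 6-phosphate away from glycolysis. Its oxidative branch yields NADPH, the reductant used for biosynthesis and for glutathione and thioredoxin systems, and its non-oxidative branch interconverts sugar phosphates, supplying ribose 5-phosphate for nucleotides and erythrose 4-phosphate for aromatic amino acids. Several steps are encoded by pairs of paralogs that date from the ancient duplication of the yeast genome, with a major form that carries most of the activity in glucose medium and a minor form. The comparison asks how the transcripts of the enzymes, and of major against minor forms, differ after growth with methanol.

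Values are log2 ratios of methanol over untreated, centred on the median gene of each array, as mean ± SD over n = 3 arrays. Neither the direction nor the log base came with the values: a positive sign was read as higher in methanol because Cy5 labelled the treated RNA, and base 2 was assumed. The other direction would turn every sign. A gene is said to rise or fall when its adjusted p was under 0.05 in limma's moderated test over the 4336 genes with a value on all 3 arrays, to which all 10 members belong. A ratio gives no absolute level, so the arrays do not tell which form of an enzyme had more transcript. The high-power scans gave values for 4714 to 5842 of 6912 spots and the low-power scans for 1881 to 3634. The alpha-specific genes MF(ALPHA)2, STE3 and SAG1 had a value in all 6 scans and the a-specific genes MFA1, MFA2, STE2 and AGA2 in 2 or 3, for a strain known to be of mating type alpha.

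The minor isoform genes rose, and their major counterparts fell or did not pass the test. GND2, TKL2 and NQM1 rose 8.91-fold, 5.80-fold and 4.68-fold, whereas GND1 and TKL1 fell and TAL1 stood near its untreated level. Among genes without a minor form in the set, ZWF1 and RPE1 rose, RKI1 fell and SOL3 did not pass the test. In total, 5 of the 10 members rose and 3 fell, against backgrounds of 26.0% of all genes called higher and 24.2% called lower (50.3% called in either direction). Of the members 3 rose and 1 fell at least 2-fold, where 7.54% and 5.63% of all genes did so. The median of the members was 0.39, and that of all genes tested was −0.01.

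**Figure D1:**
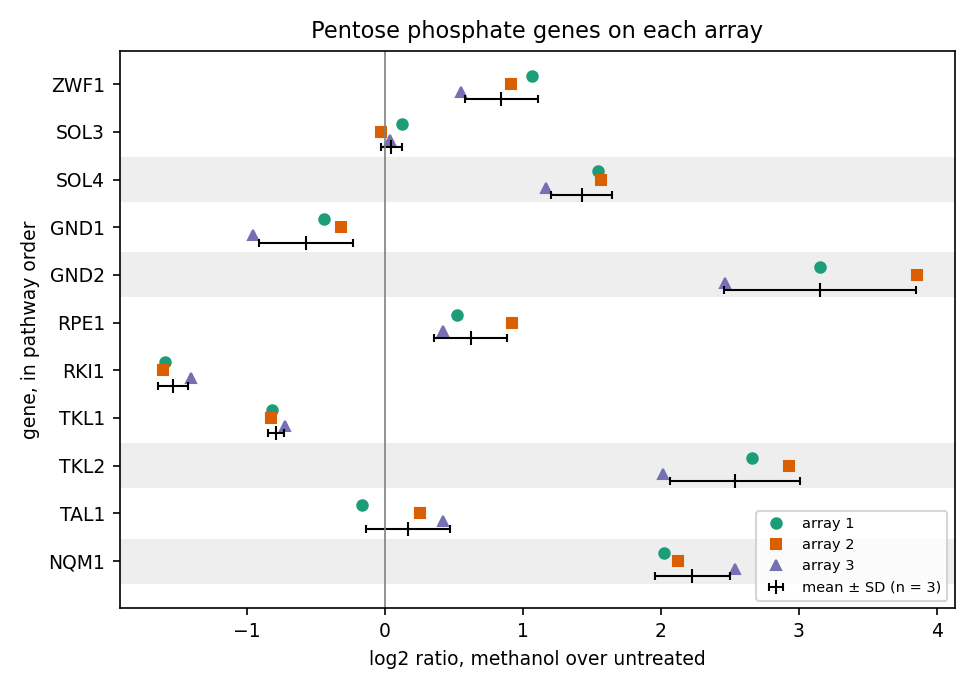
Log2 ratio of methanol over untreated (horizontal axis) for each pentose phosphate gene and for SOL4, in pathway order, with 1 symbol per array and, below the symbols, the mean with the SD over n = 3 arrays as a bar. Grey bands mark the minor forms GND2, TKL2 and NQM1 and the paralog SOL4, whose symbols all lie above 1, while all symbols of RKI1 lie below −1.

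In the oxidative branch, ZWF1 (YNL241C) encodes glucose 6-phosphate dehydrogenase, which commits glucose 6-phosphate to the pathway and makes its first NADPH. Its ratios on replicates 1, 2 and 3 were 1.07, 0.91 and 0.55, above 0 on every array and lowest on replicate 3. The mean was 0.84 ± 0.27, a 1.79-fold rise (limma adjusted p = 0.00268). SOL3 (YHR163W) encodes the 6-phosphogluconolactonase that hydrolyses the product. It stood at 0.13, −0.03 and 0.03, on both sides of 0, with a mean of 0.04 ± 0.08 and a 95% interval from limma of −0.24 to 0.33 (adjusted p = 0.780). That interval leaves out a 2-fold change in either direction.

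GND1 (YHR183W) encodes the major 6-phosphogluconate dehydrogenase, the enzyme that makes the other NADPH of the branch and releases carbon dioxide. Its ratios were −0.44, −0.32 and −0.96, below 0 on all arrays and lowest on replicate 3. The mean was −0.57 ± 0.34, or 0.673 times the untreated level (limma adjusted p = 0.0188). On replicate 2 the scans disagreed, with −0.10 at high and −0.63 at low power before centring. The call was lost with the high-power scans alone (−0.45, limma adjusted p = 0.0660), without replicate 1 (−0.64, 0.0815) and without replicate 3 (−0.38, 0.134).

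GND2 (YGR256W), the minor 6-phosphogluconate dehydrogenase gene, stood at 3.15, 3.85 and 2.46. Every array was far above 0, and the ratios spanned more than those of any other member. The mean was 3.16 ± 0.70 (limma adjusted p = 0.000102), the rank 10 from the top among 4336 genes. Its SD was larger than that of 97.3% of genes, and replicates 1 and 2 had a value at high power only. On replicate 3, where both scans gave one, they were 2.46 at high and 2.42 at low power before centring.

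In the non-oxidative branch, RPE1 (YJL121C) and RKI1 (YOR095C) encode the enzymes at the branch point, where ribulose 5-phosphate is turned by the epimerase Rpe1 into xylulose 5-phosphate or by the isomerase Rki1 into ribose 5-phosphate. They went opposite ways. RPE1 stood at 0.52, 0.92 and 0.42, all above 0 and highest on replicate 2, with a mean of 0.62 ± 0.26 (1.54-fold, limma adjusted p = 0.00934). Without replicate 1 its mean was 0.67 and the call was lost (adjusted p = 0.0595).

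RKI1 stood at −1.60, −1.61 and −1.41, close together and all below −1. It fell to 0.344 times the untreated level (−1.54 ± 0.11, limma adjusted p = 0.000124), and 54 of the 4336 genes had a lower mean. Replicates 1 and 2 had a value at high power only. On replicate 3 the scans gave −1.70 at high and −1.17 at low power before centring, the widest gap among the 21 cases in which a member had both scans of an array. The median gap over those cases was 0.081.

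TKL1 (YPR074C) encodes the major transketolase, which moves carbon units between sugar phosphates in a thiamine pyrophosphate-dependent reaction. It had the smallest spread of the members, with −0.82, −0.83 and −0.73. It fell to 0.578 times the untreated level (−0.79 ± 0.06, limma adjusted p = 0.00165). TKL2 (YBR117C), the minor transketolase gene, stood at 2.66, 2.93 and 2.01, all far above 0 and, like GND2, highest on replicate 2 and lowest on replicate 3. Its mean was 2.54 ± 0.47 (limma adjusted p = 8.80e-05), the rank 27 from the top. All its values came from high-power scans, so no scan at low power checks them.

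TAL1 (YLR354C) encodes the major transaldolase, which links the pathway back to glycolytic intermediates. It stood at −0.17, 0.25 and 0.42, with replicate 1 below 0 and the others above it. The mean was 0.17 ± 0.30, with a 95% interval from limma of −0.18 to 0.52, and TAL1 was not called (adjusted p = 0.385). Replicate 1 had a value at low power only, while the other arrays averaged both scans, so arrays and scans are mixed in its spread. Both scans of replicates 2 and 3 were above 0 before centring, at 0.31 and 0.10 and at 0.55 and 0.24.

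NQM1 (YGR043C) encodes a protein with transaldolase activity that is close in sequence to Tal1 and has been linked to quiescence. Its ratios were 2.02, 2.13 and 2.54, all above 2 and, unlike those of GND2 and TKL2, highest on replicate 3. The mean was 2.23 ± 0.27 (limma adjusted p = 6.56e-05), the rank 38 from the top. Of the 3 minor isoform genes it was the one with a value in all 6 scans, which lay between 1.96 and 2.61 before centring.

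**Figure D2:**
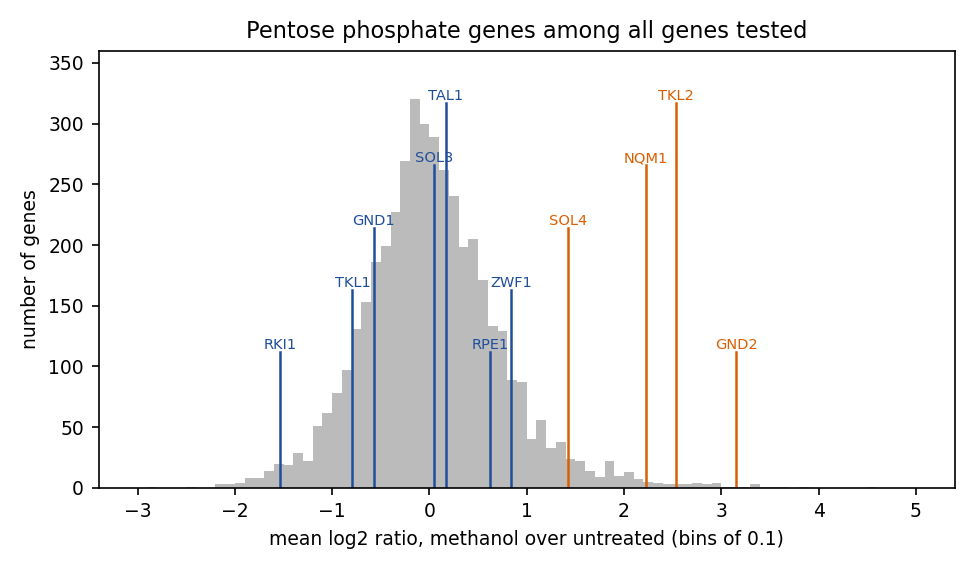
Histogram of the mean log2 ratio of the 4336 genes tested (horizontal axis, bins of 0.1; vertical axis, number of genes), with a vertical line at each pentose phosphate gene; line heights only separate the labels. Orange lines mark the minor forms and SOL4, which lie in the right tail, and blue lines the other members, of which RKI1 lies in the left tail.

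The difference between forms was taken within each array, where the centring cancels. A dye effect specific to a gene does not cancel in it. The 2 genes of a pair also did not always rest on the same scans. GND2 on replicates 1 and 2 and TKL2 on all arrays had high power only, against both powers for GND1 and TKL1. TAL1 on replicate 1 had low power only, against both for NQM1. With high power alone the mean differences were 3.64 for GND2 over GND1 and 3.28 for TKL2 over TKL1. GND2 exceeded GND1 by 3.59, 4.17 and 3.42 on the log2 scale on replicates 1, 2 and 3, and TKL2 exceeded TKL1 by 3.48, 3.76 and 2.74. NQM1 exceeded TAL1 by 2.19, 1.88 and 2.11. The minor form was thus the higher of its pair on 3 of 3 arrays in each of the 3 pairs.

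As means, the differences were 3.73 ± 0.39 for 6-phosphogluconate dehydrogenase, 3.33 ± 0.53 for transketolase and 2.06 ± 0.16 for transaldolase. The ratio of minor to major transcript therefore stood 13.3-fold, 10.03-fold and 4.17-fold above that in the untreated cultures. The exact two-sided sign-flip permutation test over arrays gave p = 0.25 for each pair, the smallest p that 3 arrays allow, so no pair could pass a threshold of 0.05 in this test. The 95% intervals of the forms from limma did not overlap in any pair: 2.59 to 3.72 for GND2 and −0.94 to −0.20 for GND1, 2.10 to 2.97 for TKL2 and −1.07 to −0.51 for TKL1, and 1.89 to 2.57 for NQM1 and −0.18 to 0.52 for TAL1. These intervals are per gene, leave out the pairing within arrays and are no test of the difference. The share of all gene pairs whose intervals do not overlap was not counted, and 50.3% of all genes were called. Paralogs of similar sequence can share signal on a spotted array, and its part in these values was not tested.

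SOL4 (YGR248W), the paralog of SOL3 that encodes another 6-phosphogluconolactonase, is not among the 10 genes and completes the pairs of the oxidative branch. It stood at 1.54, 1.57 and 1.17, all above 1, and rose 2.68-fold (1.42 ± 0.22, limma adjusted p = 0.000238). It exceeded SOL3 by 1.42, 1.59 and 1.13 on the 3 arrays, a mean of 1.38 ± 0.23 (exact two-sided sign-flip permutation p = 0.25, again the smallest possible). In the RefSeq gene table GND2 and SOL4 lie on chromosome VII with 7 protein-coding genes of the table between them, and GND1 and SOL3 on chromosome VIII with 20 between them.

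**Figure D3:**
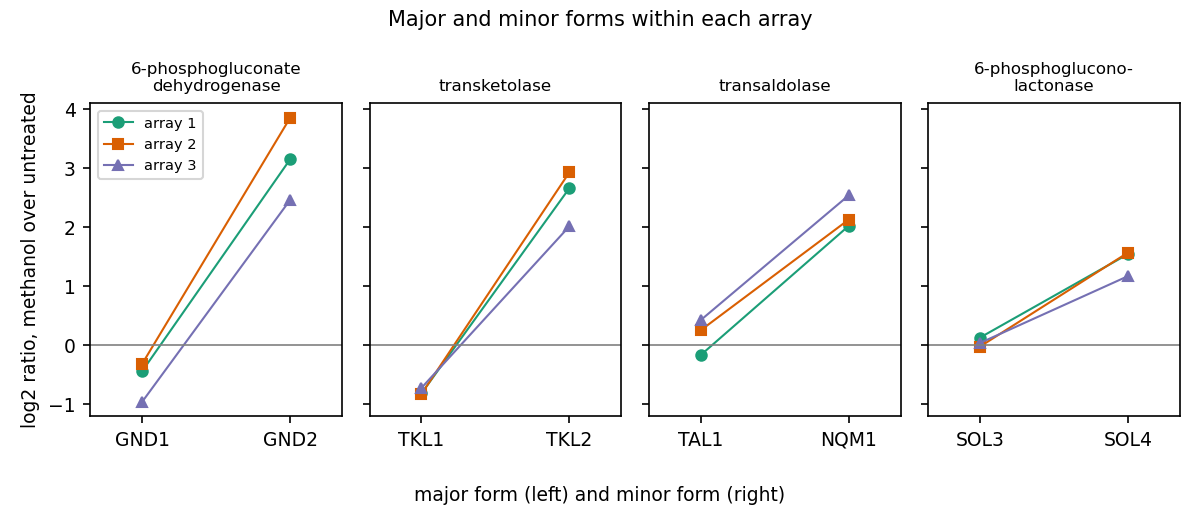
Log2 ratio of methanol over untreated (vertical axis) for the major form (left) and the minor form or paralog (right) of 4 enzymes, with 1 line per array. All lines rise from left to right, and those of 6-phosphogluconate dehydrogenase and transketolase are the steepest.

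Averaged over the 3 pairs, the minor forms stood 3.09, 3.27 and 2.76 above the major forms on replicates 1, 2 and 3 (3.04 ± 0.26, exact two-sided sign-flip permutation p = 0.25, the smallest possible). The minor isoform genes ranked near the top of all genes tested, as given above, and so led the members by mean. The same order is given here array by array and is no separate result. How often other gene sets separate in this way was not counted. On each array the lowest of the minor isoform genes was above the highest of the other 7 members. These were NQM1 at 2.02 over ZWF1 at 1.07 on replicate 1, NQM1 at 2.13 over RPE1 at 0.92 on replicate 2, and TKL2 at 2.01 over ZWF1 at 0.55 on replicate 3. Without the minor isoforms, the oxidative genes ZWF1, SOL3 and GND1 averaged 0.10 ± 0.20 and the non-oxidative genes RPE1, RKI1, TKL1 and TAL1 averaged −0.39 ± 0.11 over arrays. Within either branch, members lay on both sides of 0.

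In order of the mean, GND2 was followed by TKL2, NQM1, ZWF1, RPE1, TAL1, SOL3, GND1, TKL1 and RKI1. The SDs of the members ran from 0.056 for TKL1 to 0.70 for GND2, with a median of 0.27 against 0.22 over all genes. Neighbours in that order that differed by less than the larger of their SDs were GND2 and TKL2, TKL2 and NQM1, ZWF1 and RPE1, TAL1 and SOL3, and GND1 and TKL1. The order among the 3 minor isoforms also changed between arrays, with GND2 highest on replicates 1 and 2 and NQM1 highest on replicate 3. Of the members 8 of 10 had the same sign on all arrays, as had 72.4% of all genes.

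TKL2 and GND2, with values in 3 and 4 scans, were less often measured than NQM1 with 6. The number of scans is no sure sign of brightness, since a value can be missing at either power. TKL2 had its 3 values at high power only, whereas GLK1, named further on, had its 3 at low power only. The class of 3 scans thus mixes both kinds. Over all genes the median ratio was 0.03 for the 1067 genes with values in 3 scans and −0.05 for the 1596 genes with values in all 6. A rise of at least 2-fold was called in 11.1% of genes with 3 scans, the class of TKL2, in 7.34% of the 640 genes with 4, the class of GND2, and in 5.45% of those with all 6, the class of NQM1. The part of brightness in the ratios of TKL2 and GND2 was not tested, while NQM1 rose as a gene with values in all 6 scans.

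The genes whose ratios over the 3 arrays were nearest to those of the minor isoforms were found by the root mean square difference. For GND2 they were CPP3, PHM7 and GRE1, at 0.43, 0.43 and 0.44. For TKL2 they were NCA3, GAS2 and ERR1, at 0.21, 0.26 and 0.27; ERR1 has near-identical copies in the genome. For NQM1 they were CAT2, a carnitine acetyltransferase gene, PAI3, an inhibitor of vacuolar proteinase A, and RTN2, a reticulon gene, at 0.15, 0.18 and 0.19. The measure rests on 3 points per gene.

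The genes next to the minor isoforms on the chromosome, looked at after their values were seen, did not show rises of that size. Beside GND2, COQ6 stood at 0.06 ± 0.10 and MTM1 at 0.15 ± 0.09, and beside NQM1, RME1 stood at 0.03 ± 0.23. None of these passed the test. MTE1, on the other side of NQM1, rose by 0.46 ± 0.09 (limma adjusted p = 0.0169). Beside TKL2, LYS2 fell by 0.78 ± 0.34 (limma adjusted p = 0.00551) and TEF2 stood at −0.26 ± 0.57. Of 15 tested neighbours of the members and SOL4, 2 rose and 2 fell, against 26.0% of all genes called higher and 24.2% lower. Besides MTE1 and LYS2, these were OPY2 beside TKL1, which rose by 0.59 ± 0.44 (limma adjusted p = 0.0271), and RPS7A beside RKI1. RPS7A fell, as did RKI1, by 1.01 ± 0.24 (limma adjusted p = 0.00110). An effect of the chromosomal region was not tested.

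Of 10 measured genes on a list of side routes of the pathway and of lactonase relatives, 7 rose and 1 fell, where 26.0% of all genes were called higher and 24.2% lower. The median of the list was 0.72. Beside SOL4, GRE3, an aldose reductase gene, rose by 1.17 ± 0.27 (limma adjusted p = 0.000661) and XYL2, a xylitol dehydrogenase gene, by 1.16 ± 0.02 (0.000323). These enzymes lead from xylose through xylitol to xylulose, which XKS1, the xylulokinase gene, passes on to the non-oxidative branch. XKS1 rose by 0.44 ± 0.26 (limma adjusted p = 0.0344). SHB17, the gene of the sedoheptulose bisphosphatase that feeds ribose synthesis without the oxidative steps, was the gene of the list that fell, by 0.90 ± 0.49 (limma adjusted p = 0.00640).

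Genes on 2 short lists around the use of ribose 5-phosphate and erythrose 4-phosphate fell in most cases, some of them not under every alternative. The genes of NADPH users, given further on, went both ways. Of all genes tested, 24.2% were called lower and 26.0% higher, and these lists hold 4 and 3 measured genes. Of 4 measured genes of phosphoribosyl pyrophosphate synthetase, which starts nucleotide synthesis from ribose 5-phosphate, 3 fell and 0 rose, with a median of −0.74. PRS3 stood at −1.28, −0.99 and −1.15 (limma adjusted p = 0.000446), PRS5 fell by 0.85 ± 0.19 and PRS4 by 0.63 ± 0.21, and PRS4 lost its call without replicate 1 (adjusted p = 0.0742). PRS1, with no value on replicate 2, stood at −1.48 and −1.32 on the other arrays and was not tested. All 3 measured genes on the list of erythrose 4-phosphate use fell. ARO3 and ARO4, of the entry of the shikimate pathway, where erythrose 4-phosphate is used, fell by 0.67 ± 0.31 and 0.44 ± 0.11. ARO2, of the end of that pathway, does not itself use it and fell by 0.97 ± 0.06 (limma adjusted p = 0.000694). ARO3 lost its call without replicate 1 (adjusted p = 0.0870), and ARO4 without replicate 1 (0.146) or replicate 3 (0.105).

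Around the entry to the pathway, genes of hexose phosphate metabolism, which include those of phosphofructokinase and fructose bisphosphatase, did not move together. Of 10 genes, 4 rose and 2 fell, with a median of −0.0034, where 26.0% of all genes were called higher and 24.2% lower. Among the genes of glucose phosphorylation, GLK1, the glucokinase gene, rose by 1.32 ± 0.24 (limma adjusted p = 0.000353) and the hexokinase gene HXK1 by 1.25 ± 0.12 (0.000290). HXK2, the main hexokinase gene in glucose medium, fell by 1.40 ± 0.41 (limma adjusted p = 0.000661), and EMI2, a paralog of GLK1, stood at 0.07 ± 0.09 and was not called. FBP1, the fructose bisphosphatase gene of gluconeogenesis, rose by 2.22 ± 0.35 (limma adjusted p = 8.32e-05). Of these, GLK1, HXK1 and FBP1 had a value in 3 scans, HXK2 in 5 and EMI2 in 6. The 3 scans were all at low power for GLK1 and all at high power for FBP1.

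Of 8 genes of other NADPH sources, 2 were higher and 1 lower, with a median of 0.21. Of all genes tested, 26.0% were called higher and 24.2% lower, so the share higher was near the background. ALD6, the cytosolic acetaldehyde dehydrogenase gene, stood at 0.69, 1.24 and 1.62 and rose (1.18 ± 0.47, limma adjusted p = 0.00179). IDP2, the gene of cytosolic isocitrate dehydrogenase, rose by 0.82 ± 0.37 (limma adjusted p = 0.00504). MAE1, the mitochondrial malic enzyme gene, fell by 1.70 ± 0.23 (limma adjusted p = 0.000125). Among 9 genes of NADPH-using redox enzymes 3 rose and 3 fell, with a median of 0.08: OYE3, a gene of an NADPH oxidoreductase, rose by 1.83 ± 0.14, GCY1, a glycerol dehydrogenase gene, by 1.12 ± 0.13, and YHB1, the flavohaemoglobin gene, fell by 2.10 ± 0.21. The thioredoxin reductase gene TRR1 fell by 0.56 ± 0.20 (limma adjusted p = 0.0106), and its relative TRR2 stood at 0.34 ± 0.13 and was not called (0.0569). GLR1, the glutathione reductase gene, stood at −0.40 ± 0.27 and was not called (limma adjusted p = 0.0537).

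Of 9 regulators, 2 rose and 0 fell, with a median of −0.21. These were GIS1, a factor of the post-diauxic response, by 0.72 ± 0.26 (limma adjusted p = 0.00505) and MSN4, a general stress factor, by 0.69 ± 0.19 (0.00446), and GIS1 lost its call without replicate 1 (adjusted p = 0.0529). STB5, a factor known to act on genes of the oxidative branch, stood at −0.52, 0.02 and −0.24 and was not called (limma adjusted p = 0.191). Over the 7 lists together, 18 of 53 measured genes were higher and 13 lower, with a median of 0.08. Of all genes tested, 26.0% were called higher and 24.2% lower, so the share called lower was near the background.

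**Figure D4:**
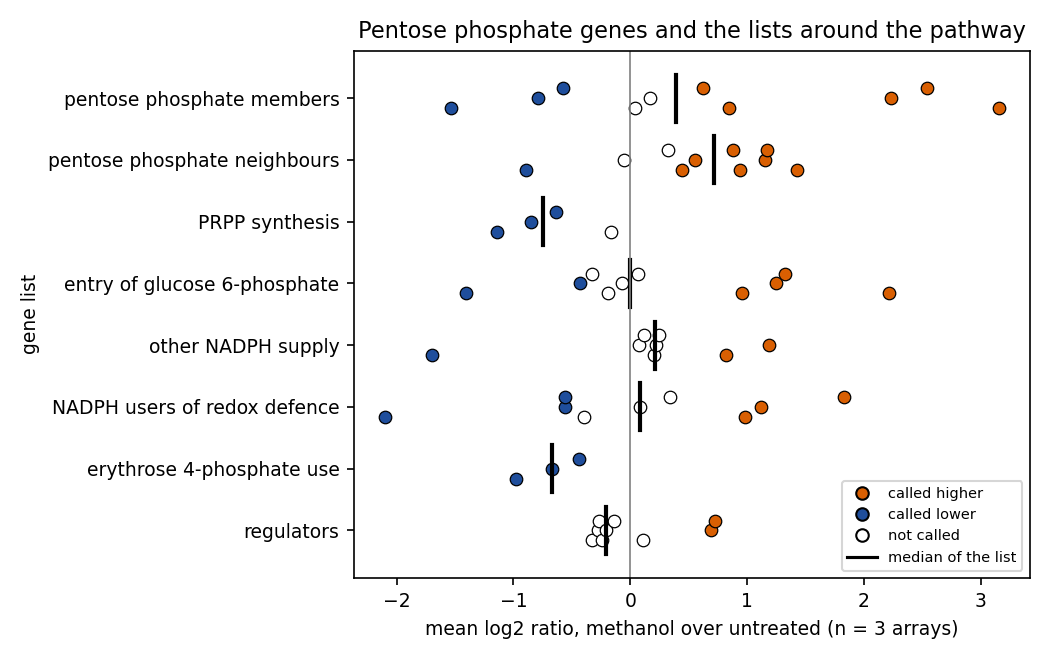
Mean log2 ratio of methanol over untreated (horizontal axis, n = 3 arrays) of each measured gene in the pentose phosphate set and in 7 lists around the pathway, with 1 circle per gene, filled orange or blue where limma called it higher or lower and empty where it was not called, and a black bar at the list's median. The pentose phosphate genes span the widest range of the lists shown, and all genes of the erythrose 4-phosphate list lie below 0.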

How the data were processed

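The deposited values are log2 ratios by the reading used here, 1 column per scan. The authors took spots of flag 0 from a high-power and a low-power scan of each array and normalized them by LOWESS, per the labels. Background correction and log base are not given in the sources used here. Spot intensities and the merged scans were not used here, so dim and saturated spots could not be filtered by signal.

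The 2 scans of an array were averaged per spot and then per gene, and the array's median gene was subtracted (medians before centring −0.05, −0.05 and −0.02 on replicates 1, 2 and 3). Of 6912 spots, 5446 had 1 gene in the platform annotation, 0 several and 1466 none; the named spots matched the RefSeq R64 table by gene ID. That table gave systematic names and gene order only. Genes measured on all 3 arrays entered limma 3.58.1 (R 4.3.3) with an intercept against 0, empirical Bayes moderation and Benjamini-Hochberg adjustment over all 4336 genes. The code was run on simulated independent normal values in which few genes were changed, whereas 50.3% of genes were called here. That run checks the code and not the calls made here. The number of arrays limits the precision. A limma fit over all paralog pairs had been planned for the isoform differences, but no protein sequences were used here, so the planned exact sign-flip test over arrays took its place.

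All members and SOL4 are named, with the 3 called genes of largest change per list and the 3 nearest genes of each minor isoform. XKS1, SHB17, PRS1, STB5, HXK1, EMI2, TRR1, TRR2 and GLR1 and the chromosomal neighbours were named after their values were seen. The members and lists were chosen with earlier results of these data known.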

Additional observations from a re-analysis of the deposited data

How the results depend on the processing

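Each ratio already pairs a treated with a control culture on 1 array, and with a single group of 3 arrays no replicate block between groups applied. For the 10 members, 85 of 90 refits kept the direction and the side of the threshold, and 4 lost a call (GND1 and RPE1, given above). The refits with robust moderation or with values on at least 2 arrays left every member's mean unchanged. Those refits could thus not change a direction. SOL3, near 0 throughout, turned to −0.0016 with the low-power scans alone (limma adjusted p = 0.992). The isoform differences could not move with the centring, which cancels in them, or where 2 arrays sufficed, since every pair had 3. Leaving out 1 of 3 arrays cannot move a mean by 1 SD. Scans of a single power could move the differences, but gave no value for the mean of the 3 pairs. High power alone gave 3.64 for GND2 over GND1, 3.28 for TKL2 over TKL1 and 1.40 for SOL4 over SOL3. Low power alone gave 2.11 for NQM1 over TAL1. Each moved by less than 1 SD. Without 1 replicate the isoform differences ran from 3.51 to 3.88 for GND2 over GND1, 3.11 to 3.62 for TKL2 over TKL1, 2.00 to 2.15 for NQM1 over TAL1, 1.27 to 1.504 for SOL4 over SOL3, and 2.92 to 3.18 for the mean of the 3 pairs. Missing scans limit them: the pairs of GND2, TKL2 and SOL4 had no value with low power alone, that of TAL1 none with high power alone, and no pair one where both scans of all arrays were required.

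Counts of calls over all genes moved by over 1.5 times under 2 choices of scans and without replicate 1. With the low-power scans alone (1710 genes, 6 members), 431 genes were higher and 485 lower, with 2 members and 10 list genes higher. With values in both scans of all arrays (1595 genes, 5 members), 446 were higher and 502 lower, with 2 members and 8 list genes higher. Leaving out 1 replicate gave 672 to 1218 genes higher and 575 to 1120 lower, 4 to 5 members higher and 2 to 3 lower, and 15 to 18 list genes higher and 8 to 14 lower. The lowest counts over all genes in that range came without replicate 1, where 4393 genes were tested against 4336 with all arrays, and the cause was not tested. Alternatives on paralog identity and promoter motifs were not run, since no sequences were used here, and each member has 1 spot, so spots were not compared.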
